A study of Danio rerio with 42 samples.

Results

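The genes described are the subunits of neurotransmitter-gated receptors that zebrafish larvae express. They were chosen by symbol: every gene of the larval count table whose name starts as an AMPA, NMDA, kainate or delta glutamate receptor (gria, grin, grik, grid), a GABA-A receptor (gabr), a glycine receptor (glra, glrb) or a nicotinic acetylcholine receptor (chrn) subunit. The rule gave 75 of 25935 genes. Of these, 73 are receptor subunits and 2, grid2ipa and grid2ipb, are not subunits but interacting proteins, and were kept apart. The rule is sensitive to case and missed GRIK3, which is not described. The members comprise 8 AMPA, 12 NMDA, 4 kainate and 3 delta glutamate receptor genes, 13 GABA-A and 5 GABA-A rho genes, 6 glycine receptor genes, 16 neuronal and 6 muscle-type nicotinic genes, and the 2 interacting proteins.

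The larvae were AB strain zebrafish, siblings matched by clutch, kept in 0% EtOH (control) or 1% EtOH (embryonic alcohol exposure, EAE) from 12 hours to 5 days after fertilization. From day 6 they received the normal diet (ND) of artemia or a high-fat, high-cholesterol (HFHC) diet of artemia with egg powder added. They were collected on day 13 as pools of 15 whole larvae, with 3 pools in each of the 4 groups (control and EAE larvae on each diet). The paper reports that EAE larvae had a reduced body length up to this day. The pools of a group are separate tubes of sibling larvae, so the p-values below measure the spread between tubes, and a whole larva mixes brain, eye, muscle, gut and all other tissues.

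Neurotransmitter-gated receptors are ion channels built from several subunits that open when a transmitter binds. AMPA, kainate and NMDA receptors respond to glutamate and carry most fast excitation in the brain, whereas GABA-A and glycine receptors pass chloride and carry most fast inhibition. Nicotinic receptors respond to acetylcholine: most of the neuronal ones act in the brain and in ganglia. The neuronal class here holds every nicotinic gene that is not muscle-type, wherever it acts. The muscle-type receptor acts at the neuromuscular junction, where it triggers contraction of skeletal muscle. Ethanol is known to act on several of them directly while it is present, blocking NMDA receptors and enhancing GABA-A and glycine receptors. Here the receptor mRNAs were measured on day 13, after the exposure had ended on day 5.

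Total counts ranged from 18582927 to 39115243 per pool, with control ND replicate 3 the deepest and the others at or below 22560201. Replicates of 1 group differed from each other by more than counting noise (chi-square per degree of freedom 4.34 to 7.99 over 12 pairs), and the biological coefficient of variation across all genes was 7.35%. Markers of neurons (20 genes), glia (14), photoreceptors (14), skeletal muscle (22), liver (5), intestine (6) and exocrine pancreas (4) were counted in every pool. Replicate 2 of control ND and replicate 2 of control HFHC stood low on the genes described here and on the neuron markers. Counts of calls among the receptor genes are therefore also given with single pools left out. Marker and partner genes were not refitted without these pools, and the class sums include them.

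Levels are given in TPM, the share of transcripts after division by gene length, and can be compared between genes. The 75 genes summed to 374 to 486 TPM in a pool, between 0.0374% and 0.0486% of all transcripts. Over the 12 pools 59 genes had a mean of at least 1 TPM and 11 of at least 10 TPM. The median gene had 2.57 TPM and the 10 highest genes held 56.7% of the summed level. By class, the muscle-type nicotinic genes held 22.1% of the summed level, the GABA-A genes 19.4%, the AMPA genes 18.9%, the NMDA genes 17.3%, the neuronal nicotinic genes 7.56% and the glycine receptor genes 7.23%. The GABA-A rho genes held 2.42%, the kainate genes 2.56%, the delta genes 1.72% and the interacting proteins 0.812%.

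**Figure D1:**
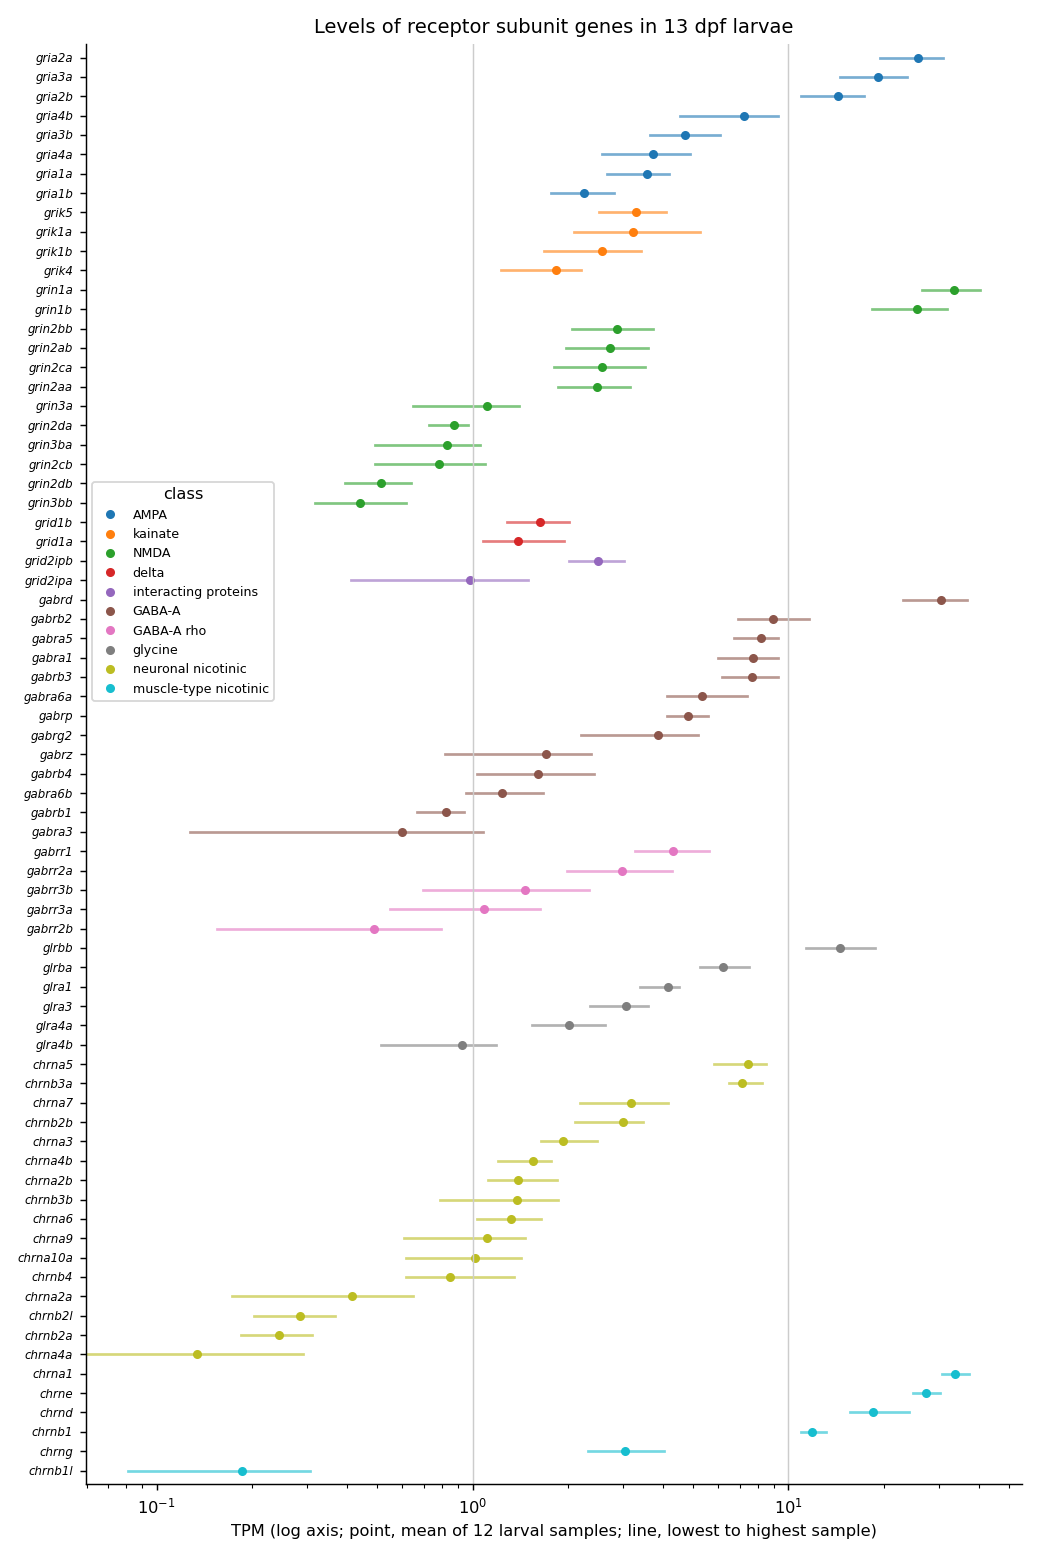
Level of 74 of the 75 genes in TPM on a log axis, ordered within its receptor class; the point is the mean of the 12 pools and the line runs from the lowest to the highest pool, with vertical lines at 1 and 10 TPM. The highest means were those of chrna1 (33.6 TPM) and grin1a (33.4 TPM); chrna4a was at 0 in 1 pool, so its line leaves the axis on the left.

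Among the glutamate receptors, the NMDA class was led by the paralogs grin1a (mean 33.4 TPM) and grin1b (25.4 TPM). They encode the GluN1 subunit that every NMDA receptor needs, and they held 45.1% and 34.4% of the class. The next NMDA gene, grin2bb, a GluN2 subunit that sets the kinetics of the channel, reached only 2.87 TPM. The summed level of grin1a and grin1b was 4.20 to 4.92 times that of all grin2 genes. It was 4.20 to 4.58 times in control ND, 4.26 to 4.65 in EAE ND, 4.57 to 4.84 in control HFHC and 4.71 to 4.92 in EAE HFHC pools. Control and EAE pools overlapped on each diet, and control pools overlapped between the diets. The EAE HFHC pools lay above all EAE ND and control ND pools. The ratio was not tested. The AMPA class was led by gria2a (25.7 TPM), one of the genes of GluA2, the subunit that in mammals keeps AMPA receptors closed to calcium after its mRNA is edited, and by gria3a (19.3 TPM). Kainate genes were low, the highest being grik5 (3.30 TPM) and grik1a (3.21 TPM). Delta genes were also low. They encode receptor-like proteins of the glutamate family that act at synapses, and grid1b had 1.63 TPM and grid1a 1.39 TPM.

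Among the inhibitory receptors, gabrd was the highest GABA-A gene at 30.3 TPM (36.6% of the class). The delta subunit it encodes forms, in mammals, receptors outside synapses that respond to low GABA. The next was gabrb2, a beta subunit, at 8.95 TPM. The rho genes, which in mammals form the GABA receptors of retinal bipolar cells, were led by gabrr1 (4.31 TPM) and gabrr2a (2.98 TPM). Of the glycine receptor genes, the beta subunit paralogs glrbb (14.6 TPM) and glrba (6.21 TPM) exceeded every alpha subunit. The beta subunit anchors the receptor to gephyrin under the synapse.

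The muscle-type nicotinic receptor was measured at a high level in whole larvae: chrna1 had 33.6 TPM, chrne 27.3 TPM, chrnd 18.5 TPM, chrnb1 11.9 TPM and chrng 3.04 TPM. In mammals the epsilon subunit (chrne) replaces the gamma subunit (chrng) as muscle matures, and here the TPM of chrne was 7.07 to 11.2 times that of chrng across the 12 pools. The second beta gene, chrnb1l, was barely counted (3 to 10 counts in a pool). Neuronal nicotinic genes were led by chrna5 (7.42 TPM) and chrnb3a (7.13 TPM), both accessory subunits. The alpha subunit gene chrna4a had 0 to 5 counts; a count of 0, seen in 1 pool, allows up to 3 counts.

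In summed level, the AMPA, NMDA and GABA-A classes and the muscle-type class were ordered differently over the groups. The AMPA genes summed to 69.3 TPM ± 7.10 (SD, n = 3) in control ND, 87.7 TPM ± 5.13 in EAE ND, 84.4 TPM ± 14.9 in control HFHC and 81.8 TPM ± 3.79 in EAE HFHC pools. The NMDA genes summed to 60.8 TPM ± 3.60, 80.0 TPM ± 6.58, 78.3 TPM ± 15.0 and 77.2 TPM ± 2.96 in the same order, and the GABA-A genes to 71.3 TPM ± 5.34, 90.1 TPM ± 4.61, 86.4 TPM ± 15.2 and 83.4 TPM ± 4.54. In all 3 classes control ND was the lowest group, and the 3 control ND pools lay below the 3 EAE ND pools without overlap. In control HFHC the SD was about as wide as the difference from control ND, and replicate 2 lay within the range of the control ND pools. The muscle-type genes summed to 100.5 TPM ± 7.06, 90.9 TPM ± 0.946, 94.4 TPM ± 6.43 and 92.1 TPM ± 2.72, highest in control ND. No test was made on these sums: with 3 pools against 3, an exact two-sided permutation test cannot give a p below 0.1.

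**Figure D2:**
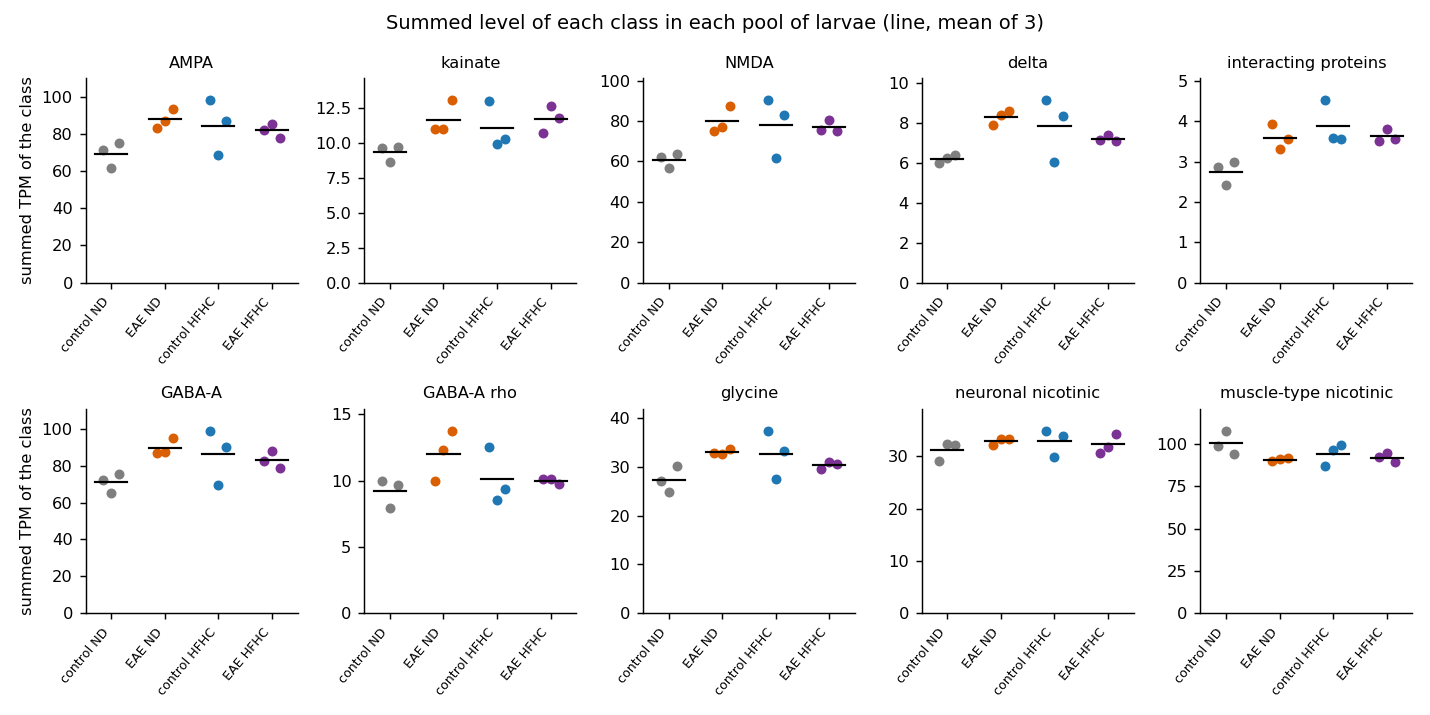
Summed TPM of the members of each receptor class in each of the 12 pools (points), by group, with the mean of 3 pools as a line; every axis starts at 0. For the AMPA, NMDA and GABA-A genes the control ND pools lie lowest, and 1 control HFHC pool lies with them.

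Gene by gene, groups were then compared on the counts in edgeR (quasi-likelihood F-test), p-values were adjusted by Benjamini and Hochberg over 19657 genes, and the threshold was 0.05. Of the 75 genes, 72 had enough counts; chrna4a, chrnb1l and gabra3 did not. Values by pool are CPM, the counts of a gene relative to the library's total after scaling for library composition. They are not scaled by gene length and compare pools within a gene only. Differences are log2 fold changes with their standard errors. In these bulk samples fewer cells of a type and less RNA per cell cannot be told apart.

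The first comparison asks whether larvae exposed to EtOH as embryos still differed from their siblings on the normal diet. Most receptor genes outside the muscle-type class were a little higher in EAE ND than in control ND pools. The muscle-type nicotinic genes were slightly lower, and only a few differences passed the test. Of 72 genes, 4 were called higher (5.56%), against 0.850% of all genes tested, and 0 lower, against 0.458%. The 4 were gabra6a, grin1b, gria1a and grid2ipa. At an unadjusted p under 0.05, 30 were higher (41.7%), against 8.91% of all genes, and 2 were lower (2.78%), against 6.73%. The 2 lower were chrnd and chrnb1. The difference was positive for 61 of 72 (84.7%, against 49.2% of all genes), with a median of 0.25 against -0.0026 over all genes.

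The GABA-A subunit gene gabra6a (ENSDARG00000075058, chromosome 14, 21854815 to 21871541 on GRCz10) encodes alpha 6, which in mammals marks cerebellar granule cells. It measured 7.88, 6.71 and 7.77 CPM in control ND and 10.96, 9.67 and 9.73 CPM in EAE ND pools, so that every exposed pool lay above every control pool. The log2 fold change was 0.43 ± 0.10 (adjusted p = 0.0421, edgeR). An end of the gene's annotated span overlaps that of nudcd2, which ends at 21854819, so they share only a few bases. The difference of nudcd2 was -0.12 (adjusted p = 0.589, edgeR).

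The NMDA gene grin1b (ENSDARG00000025728, chromosome 5, 28997788 to 29043468) measured 62.5, 54.9 and 58.6 CPM in control ND and 78.2, 76.96 and 86.0 CPM in EAE ND pools (0.45 ± 0.10, adjusted p = 0.0464, edgeR). Its paralog grin1a measured 75.9, 72.6 and 77.9 CPM against 89.5, 90.6 and 99.4 CPM (0.30 ± 0.09, adjusted p = 0.0996). Neither gene overlapped between the groups, but only grin1b passed the test, and the 2 changes were not tested against each other.

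The AMPA gene gria1a (ENSDARG00000021352, chromosome 14, 33785541 to 33936260), a GluA1 gene, measured 12.7, 11.02 and 11.2 CPM in control ND and 15.0, 15.4 and 16.2 CPM in EAE ND pools (0.42 ± 0.10, adjusted p = 0.0484, edgeR). The gene grid2ipa (ENSDARG00000076103, chromosome 3, 18525991 to 18560269) encodes one of the interacting proteins. It measured 2.50, 1.69 and 3.02 CPM in control ND and 4.15, 4.52 and 4.53 CPM in EAE ND pools (0.81 ± 0.18, adjusted p = 0.0435, edgeR). The groups did not overlap for either gene, and grid2ipa had the widest difference among the 4.

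The calls were fragile. With 1 pool left out they numbered 0 without control ND replicate 2, EAE ND replicate 1 or EAE ND replicate 3, 1 without control ND replicate 1 (gria1a) or EAE ND replicate 2 (gabra6a), and 2 without control ND replicate 3 (grid2ipa and grin2ab). The median over the 72 genes stayed between 0.21 and 0.30. With DESeq2 in place of edgeR 7 were called. Just outside the threshold stood grin2ab (0.48 ± 0.12, adjusted p = 0.0533) and gabrd (0.37 ± 0.09, adjusted p = 0.0598, edgeR).

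By class, all 8 AMPA genes had positive differences with a median of 0.32, as did 11 of 12 NMDA genes (0.31), all 4 kainate genes (0.25) and all 3 delta genes (0.36). All 12 GABA-A genes tested were positive with a median of 0.27, all 5 rho genes with 0.41 and all 6 glycine receptor genes with 0.22. Apart from gabra6a, grin1b and gria1a, no subunit in these classes passed the test. The most abundant AMPA gene, gria2a, measured 42.2, 34.5 and 41.0 CPM against 46.8, 47.1 and 47.4 CPM (0.26 ± 0.09, adjusted p = 0.142), and gria3a had 0.35 ± 0.10 (adjusted p = 0.0807). The glycine beta genes glrbb (0.26 ± 0.11) and glrba (0.21 ± 0.11) did not pass, nor did gabrb2 (0.33 ± 0.13), grik5 (0.33 ± 0.14), grik1a (0.15 ± 0.21), grid1b (0.36 ± 0.15), gabrr1 (0.25 ± 0.17) or gabrr2a (0.41 ± 0.22).

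The medians of the nicotinic classes differed from the rest in direction or size, but classes were not tested against each other. Of 15 neuronal nicotinic genes tested 10 were positive with a median of 0.06, and the most abundant, chrna5 (-0.05 ± 0.15) and chrnb3a (-0.02 ± 0.10), were close to 0. At an unadjusted p under 0.05, 2 of the 15 were higher (13.3%, against 8.91% of all genes) and 0 lower (against 6.73%). The 2 were chrnb2b (0.30, adjusted p = 0.148, edgeR) and chrna10a (0.60, adjusted p = 0.265). All 5 muscle-type genes had negative differences with a median of -0.15. The delta subunit gene chrnd measured 20.8, 25.0 and 20.4 CPM in control ND and 19.0, 18.3 and 18.6 CPM in EAE ND pools (-0.23 ± 0.08, unadjusted p = 0.0134, adjusted p = 0.173, edgeR). The groups did not overlap, but the highest pool, control ND replicate 2, is the library that stood apart. For the others the differences were chrne -0.16 ± 0.08, chrng -0.15 ± 0.19, chrna1 -0.14 ± 0.08 and chrnb1 -0.14 ± 0.06, and none passed the test.

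**Figure D3:**
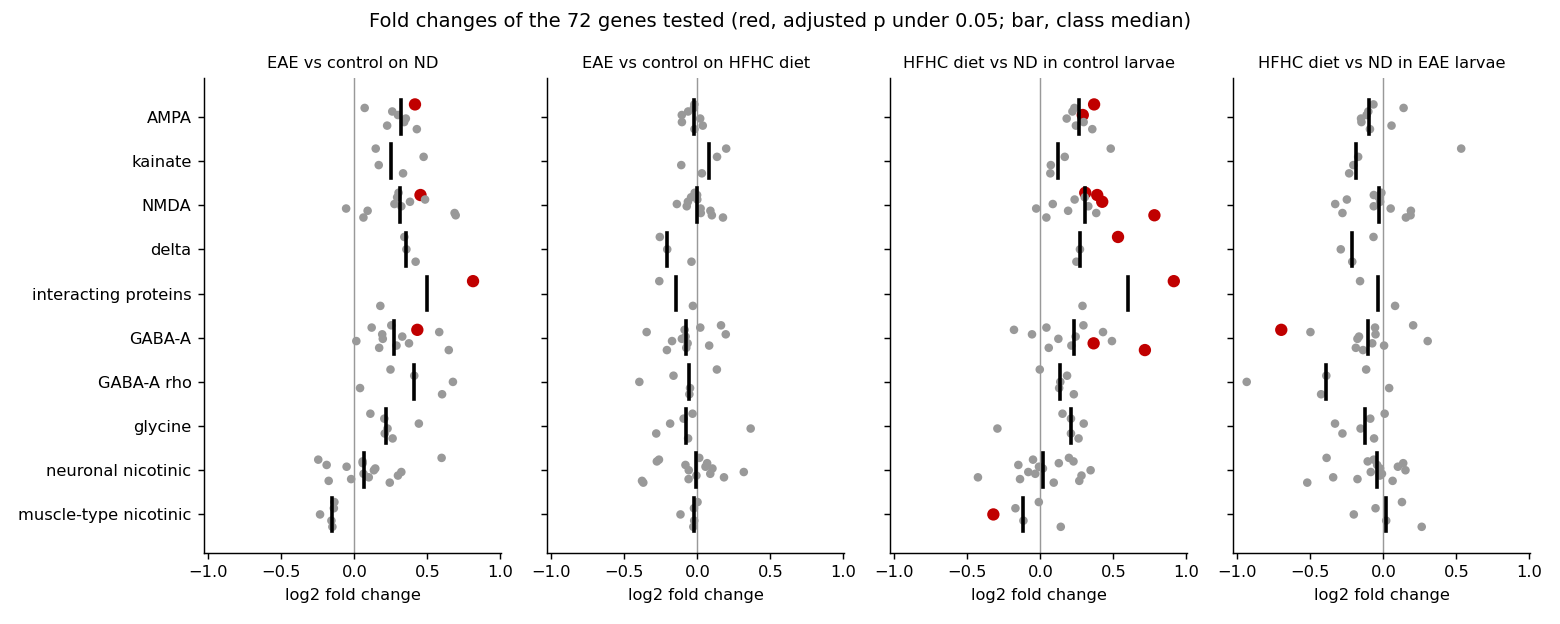
Log2 fold changes of the 72 tested genes by receptor class in the 4 pairwise comparisons; each point is a gene, red where its adjusted p is under 0.05, and the bar is the class median. On the normal diet the points of the glutamate, GABA-A and glycine receptor classes lie mostly above 0 and those of the muscle-type class below it, and on the HFHC diet the EAE and control larvae show no red point.

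On the HFHC diet, EAE and control larvae were not told apart on any receptor gene. None of 72 was called higher (0%, against 0.0814% of all genes) or lower (0%, against 0.153%) by edgeR, and DESeq2 called 0 as well. At an unadjusted p under 0.05, 0 were higher, against 4.13% of all genes, and 1 was lower (1.39%), against 4.18%. That gene was glrba, with 8.85, 6.93 and 8.49 CPM in control HFHC and 6.34, 6.79 and 6.92 CPM in EAE HFHC pools (-0.28 ± 0.11, unadjusted p = 0.0249, adjusted p = 0.491). The median over the 72 genes was -0.04 and moved between -0.13 and 0.03 as single pools were left out. The genes called on the normal diet had here gabra6a -0.09 ± 0.10, grin1b -0.0016 ± 0.10, gria1a -0.02 ± 0.10 and grid2ipa -0.26 ± 0.18.

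The next comparison asks what the HFHC diet did in control larvae. Several glutamate receptor genes were higher on the HFHC diet, among them 4 NMDA genes and the delta gene grid1a, together with grid2ipa, and the muscle nicotinic gene chrnd was lower. Of 72 genes, 10 were called higher (13.9%), against 9.58% of all genes, and 1 lower (1.39%), against 7.55%. At an unadjusted p under 0.05, 20 were higher (27.8%), against 17.4% of all genes, and 2 lower (2.78%), against 15.0%. The diet moved many genes in these larvae, so the share of receptor genes called higher lay not far above that of all genes, while few fell. The difference was positive for 56 of 72 (77.8%, against 51.9% of all genes), with a median of 0.21 against 0.01 over all genes. This comparison shares its control ND pools with the comparison of EAE and control on ND, so a low value in those pools enters both.

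The gene grid2ipa measured 5.83, 4.16 and 4.11 CPM in control HFHC pools against 2.50, 1.69 and 3.02 CPM in control ND (0.91 ± 0.18, adjusted p = 0.00318, edgeR). It was called under every one of the 13 alternatives run, with adjusted p-values from 2.9e-04 to 0.0236. The gene grid1a (ENSDARG00000074583, chromosome 17, 25936612 to 26345011), a delta receptor gene, measured 3.60, 3.55 and 3.58 CPM in control ND and 6.05, 4.11 and 5.26 CPM in control HFHC pools (0.53 ± 0.13, adjusted p = 0.0130). The groups did not overlap for either gene, and both were highest in control HFHC replicate 1.

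Of the NMDA genes, grin3ba (ENSDARG00000005364, chromosome 2, 26404894 to 26501150), a GluN3 subunit that in mammals lowers calcium flux, measured 1.09, 1.25 and 0.997 CPM in control ND and 1.97, 1.71 and 1.95 CPM in control HFHC pools (0.78 ± 0.19, adjusted p = 0.0111, edgeR). Its annotated span overlaps that of slc2a2, a glucose transporter gene at a mean of 54.0 CPM whose own difference was 0.02 (adjusted p = 0.894). The GluN2B gene grin2bb (ENSDARG00000030376, chromosome 1, 44680767 to 44861807) measured 10.3, 9.98 and 12.0 CPM against 17.0, 12.2 and 14.5 CPM (0.42 ± 0.11, adjusted p = 0.0146). For both genes every HFHC pool lay above every ND pool, for grin2bb by a narrow gap.

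The GluN1 genes rose as well, but their groups overlapped. grin1b measured 90.0, 61.0 and 79.4 CPM in control HFHC pools (0.39 ± 0.10, adjusted p = 0.0180, edgeR) and grin1a 105, 75.5 and 99.5 CPM (0.31 ± 0.09, adjusted p = 0.0282). For both, replicate 2 lay inside the range of the control ND pools. The AMPA gene gria1a measured 16.0, 13.1 and 15.8 CPM (0.37 ± 0.10, adjusted p = 0.0166), all above the control ND pools.

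Of the GABA-A genes, gabrd (ENSDARG00000059763, chromosome 8, 53303839 to 53319672) measured 21.7, 20.6 and 22.7 CPM in control ND and 31.1, 22.8 and 29.8 CPM in control HFHC pools (0.36 ± 0.09, adjusted p = 0.0154, edgeR). The groups did not overlap, but the lowest HFHC pool, replicate 2, lay just above the highest ND pool. The gene lies inside the span of cacna1db, which was counted at a mean of only 0.441 CPM. The other genes that rose were gabrz (1.14, 1.96 and 1.87 against 3.20, 2.45 and 2.57 CPM, 0.72 ± 0.22, adjusted p = 0.0321) and the GluA2 gene gria2b (32.2, 29.5 and 35.9 against 44.5, 32.9 and 42.4 CPM, 0.29 ± 0.10, adjusted p = 0.0488). The groups overlapped for gria2b and not for gabrz. Both ranked below the 8 smallest p-values and are named to complete the 10. In contrast to gabrd and gabrz, gabra6a had a difference of -0.18 ± 0.10 (adjusted p = 0.224), and nudcd2, which overlaps it, was lower (-0.32, adjusted p = 0.0250).

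The gene that fell was chrnd (ENSDARG00000019342, chromosome 24, 25538120 to 25546069), with 20.8, 25.0 and 20.4 CPM in control ND and 15.9, 18.2 and 18.5 CPM in control HFHC pools (-0.32 ± 0.08, adjusted p = 0.0168, edgeR). The groups did not overlap. It lost the call without control ND replicate 2 (adjusted p = 0.0690) or control HFHC replicate 1 (adjusted p = 0.0877). The other muscle-type genes had chrnb1 -0.17 ± 0.06 (adjusted p = 0.0760), chrne -0.12 ± 0.08, chrna1 -0.01 ± 0.08 and chrng 0.14 ± 0.18, so only chrnd passed. The clustering protein of the muscle receptor, rapsyn (rapsn), measured 13.9, 14.5 and 11.6 CPM in control ND and 10.1, 10.99 and 9.998 CPM in control HFHC pools and was also lower (-0.35, adjusted p = 0.0173). Of the 5 neuromuscular junction partners tested it was the only one called; 3 had positive differences, agrn (0.21, adjusted p = 0.0543) and colq (0.31, adjusted p = 0.0522) among them, and the median of the list was 0.14.

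The number called in this comparison depended on single pools. Without control HFHC replicate 2, the pool with the lowest receptor levels on this diet, 20 genes were called instead of 11, 19 higher and 1 lower. Without control HFHC replicate 1, the pool with the highest levels, only grid2ipa and grin3ba remained. Leaving out control HFHC replicate 3 gave 5 calls and leaving out control ND replicate 2 gave 4. By class the medians were 0.27 for the AMPA genes (8 of 8 positive) and 0.31 for the NMDA genes (11 of 12). They were 0.12 for the kainate genes (4 of 4) and 0.27 for the delta genes (3 of 3). The GABA-A genes had 0.23 (10 of 12), the rho genes 0.14 (4 of 5) and the glycine receptor genes 0.21 (5 of 6). The neuronal nicotinic genes had 0.02 (8 of 15) and the muscle-type genes -0.12 (1 of 5).

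**Figure D4:**
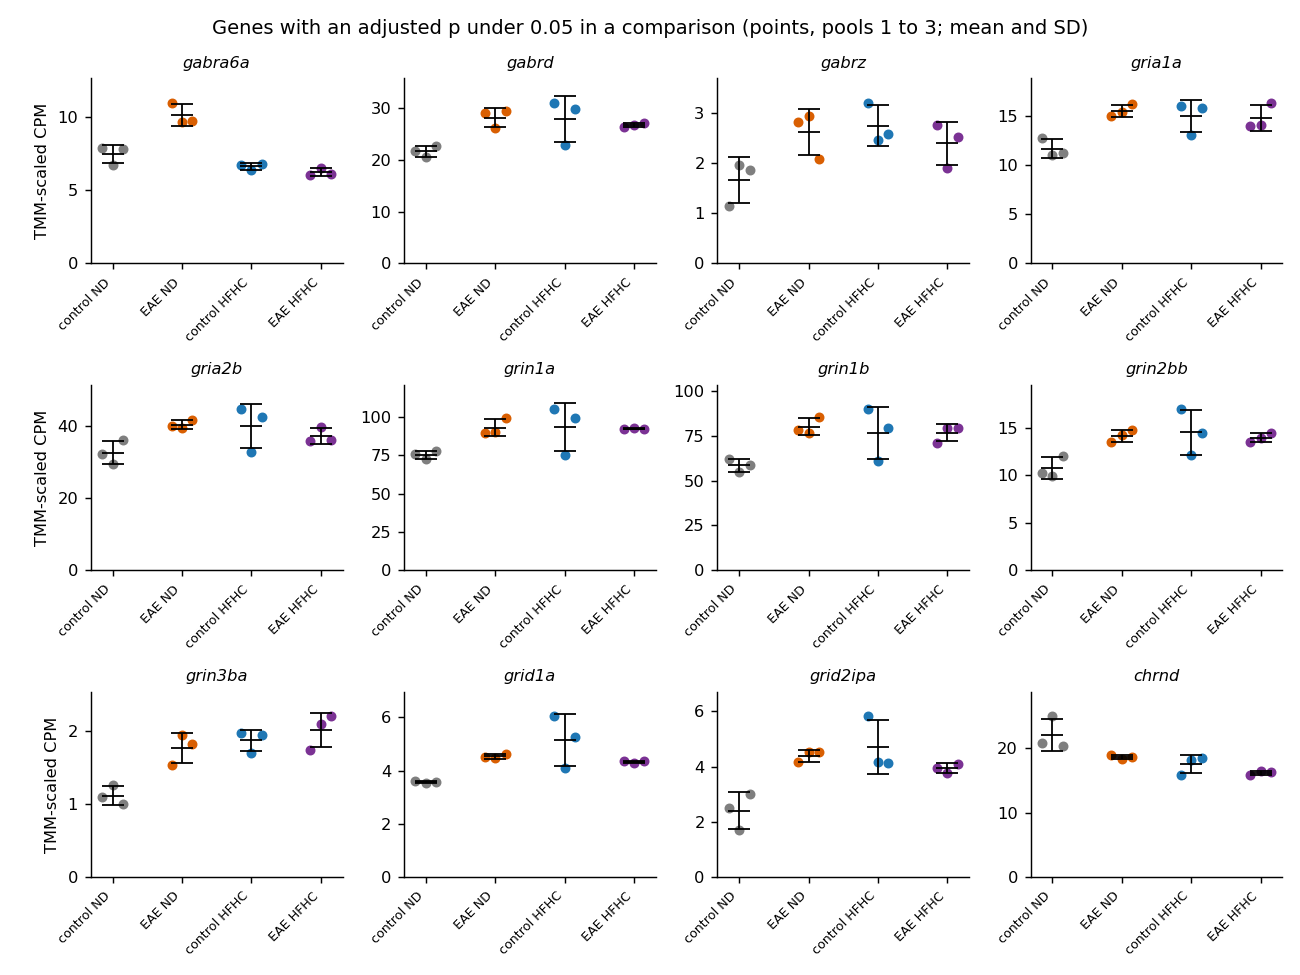
Scaled CPM in each of the 12 pools (points) for the 12 genes called in any comparison, with the mean ± SD of the 3 pools of each group. gabra6a is lowest on the HFHC diet in both EtOH groups, chrnd is highest in control ND, and the other 10 genes are lowest in control ND.

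In EAE larvae the HFHC diet gave a single call among the receptor genes, the GABA-A gene gabra6a, which fell. Of 72 genes 0 were called higher, against 8.19% of all genes, and 1 lower (1.39%), against 4.13%. At an unadjusted p under 0.05, 1 was higher (1.39%), against 15.3% of all genes, and 5 were lower (6.94%), against 11.4%. The 1 higher was grik1a (0.53 ± 0.20), and the 5 lower were gabra6a, gabra6b, gabrr2b, glrba and chrnd. The median over the 72 genes was -0.07. By class the medians were -0.39 for the GABA-A rho genes, -0.21 for the delta genes, -0.19 for the kainate genes, -0.12 for the glycine receptor genes, -0.11 for the GABA-A genes, -0.10 for the AMPA genes, -0.04 for the neuronal nicotinic genes, -0.03 for the NMDA genes and 0.02 for the muscle-type genes.

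The gene that fell was gabra6a. It measured 10.96, 9.67 and 9.73 CPM in EAE ND and 6.04, 6.51 and 6.12 CPM in EAE HFHC pools, a log2 fold change of -0.70 ± 0.10 (adjusted p = 2.87e-04, edgeR), or 0.616 times the level. It was called under all 13 alternatives, with adjusted p-values from 1.04e-05 to 0.00239. In control HFHC pools it measured 6.71, 6.35 and 6.77 CPM, which overlapped the lowest control ND pool, and the 3 EAE ND pools lay above the other 9. Its paralog gabra6b measured 2.31, 2.66 and 2.55 CPM in EAE ND and 1.998, 1.63 and 1.70 CPM in EAE HFHC pools (-0.50 ± 0.18, adjusted p = 0.0865). The overlapping nudcd2 had -0.14 (adjusted p = 0.381). The ratio of gabra6a to gabrd in TPM, chosen after the values were seen, was 0.196 to 0.227 in the 6 ND pools and 0.130 to 0.168 in the 6 HFHC pools.

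Without EAE HFHC replicate 1, grik1a was called as well (0.75, adjusted p = 0.0157, edgeR). This kainate gene measured 5.33, 6.10 and 7.13 CPM in EAE ND and 5.99, 11.3 and 9.43 CPM in EAE HFHC pools, with replicate 1 inside the range of the ND pools. The rho gene gabrr2b had the widest difference of the 72 (-0.94 ± 0.40, adjusted p = 0.148, edgeR), with 0.768, 0.632 and 0.572 CPM in EAE ND and 0.2997, 0.558 and 0.150 CPM in EAE HFHC pools. The groups did not overlap, but the gene had only 3 to 15 counts in these 6 pools and did not pass the test. The glycine beta gene glrba had -0.28 ± 0.11 (adjusted p = 0.126), and chrnd measured 15.8, 16.5 and 16.2 CPM in EAE HFHC against 19.0, 18.3 and 18.6 CPM in EAE ND pools without passing the test (-0.20 ± 0.09, adjusted p = 0.149).

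Whether the EtOH difference depended on the diet was tested as the interaction, the EtOH difference on the HFHC diet minus that on ND. None of 72 genes was called higher (against 0.0814% of all genes) or lower (against 0.173%) by edgeR, whereas DESeq2 called grid2ipa. At an unadjusted p under 0.05, 0 were higher, against 5.87% of all genes, and 24 were lower (33.3%), against 7.93%. The median was -0.30 against 0.01 over all genes. Of the 72 genes 57 were negative and 15 positive (20.8%, against 52.5% of all genes). The smallest p was that of grid2ipa (-1.07 ± 0.25, unadjusted p = 6.41e-04, adjusted p = 0.0745). For gabra6a it was -0.52 ± 0.14 (adjusted p = 0.116), for grin1b -0.45 ± 0.15 (adjusted p = 0.173) and for gria1a -0.44 ± 0.14 (adjusted p = 0.159). The interaction takes all 4 groups, and the control ND pools that were low in the 2 earlier comparisons enter it again.

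The interaction also rested on single pools. Without control HFHC replicate 2, 8 genes were called lower, among them gabrd, gria2b, gria3b, grid1a, grid2ipa, grin1a and grin1b, and the median was -0.41. Without control HFHC replicate 1 none was called and the median was -0.18. Without control ND replicate 3 grid2ipa was called (adjusted p = 0.0446). The muscle-type genes had interactions of 0.12 to 0.14, all positive and none past the test, and the neuronal nicotinic genes had a median of -0.04.

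Markers of cell types were read beside the receptor genes. For all genes tested the shares called were 0.850% higher and 0.458% lower between EAE and control on ND, 9.58% and 7.55% with the HFHC diet in controls, and 8.19% and 4.13% with the diet in EAE larvae, and the counts of markers and of partner genes that follow stand against these. The neuron markers had a median difference of 0.29 between EAE and control on ND, with 5 of 20 called higher (elavl3, elavl4, stxbp1a, map2 and syn1) and 0 lower. In control larvae the HFHC diet gave them 0.17, with 7 higher. The median in EAE larvae on the HFHC diet against ND was -0.17, with 2 lower, and the interaction median was -0.33. Their summed level ranged from 1104 to 1444 TPM over the pools, with group ranges of 1164 to 1269 TPM in control ND, 1421 to 1443 TPM in EAE ND, 1104 to 1444 TPM in control HFHC and 1175 to 1238 TPM in EAE HFHC, and no marker was at 0. The photoreceptor markers had a median of 0.28 on ND with 0 of 14 called. With the HFHC diet 4 were higher and 3 lower in controls (median 0.08), and 6 were lower and 0 higher in EAE larvae (median -0.32). They summed to 1863 to 2541 TPM in control ND, 2808 to 2947 TPM in EAE ND, 2005 to 2747 TPM in control HFHC and 2215 to 2505 TPM in EAE HFHC pools. Glia markers had a median of 0.12 on ND, with 2 of 14 higher. These were slc1a2b and slc1a3b, which are also in the list of glutamate release and uptake given below. With the diet 6 glia markers were higher and 1 lower in controls, and 3 were higher and 4 lower in EAE larvae. Of the liver, intestine and exocrine pancreas markers 0 were called on ND; with the diet, 1 intestine marker was higher and 1 lower in controls, and 1 liver and 1 intestine marker were higher in EAE larvae. Beside the muscle-type receptor genes, the skeletal muscle markers had a median of -0.11 in both the ND comparison (3 of 22 lower) and the diet comparison in controls (7 of 22 lower), with 0 higher in either; with the diet in EAE larvae 4 were lower and 1 higher (median 0.02). They summed to 115837 to 130174 TPM in control ND, 109740 to 118112 TPM in EAE ND, 121121 to 124524 TPM in control HFHC and 118464 to 127992 TPM in EAE HFHC pools. The part of the cell type markers in the receptor differences was not tested.

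**Figure D5:**
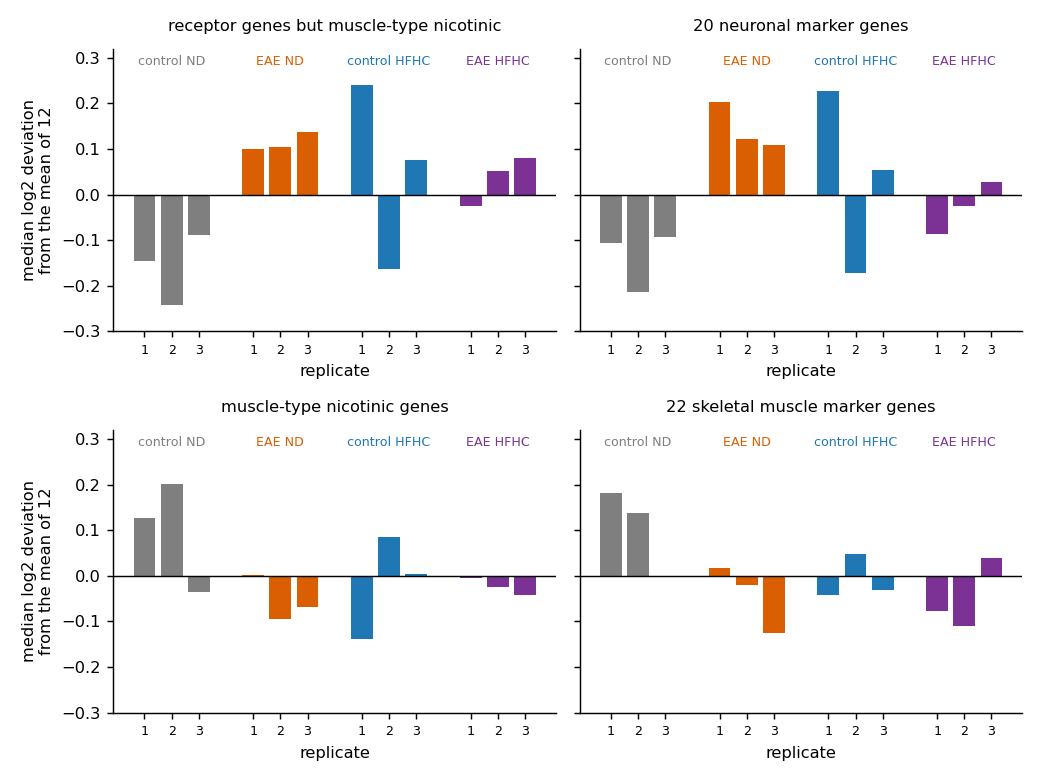
Median log2 deviation of each of the 12 pools from the mean of all 12, for the receptor genes other than the muscle-type nicotinic ones, the 20 neuron markers, the muscle-type nicotinic genes and the 22 skeletal muscle markers. Control ND replicate 2 and control HFHC replicate 2 lie low on these receptor genes (-0.241 and -0.164) and on the neuron markers (-0.214 and -0.171). Control HFHC replicate 1 lies high on both (0.240 and 0.227).

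Pool by pool, the receptor genes without the muscle-type class deviated from the mean of the 12 pools by a median of -0.146, -0.241 and -0.088 in control ND, 0.1005, 0.105 and 0.137 in EAE ND, 0.240, -0.164 and 0.076 in control HFHC and -0.025, 0.051 and 0.081 in EAE HFHC pools (log2 scale). The neuron markers deviated by -0.107, -0.214 and -0.093, by 0.202, 0.122 and 0.109, by 0.227, -0.171 and 0.054, and by -0.087, -0.026 and 0.027 in the same order. On both sets the control ND pools were all below and the EAE ND pools all above the mean, control HFHC replicate 1 was the highest pool, and control ND replicate 2 was the lowest, followed by control HFHC replicate 2.

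The genes that serve these receptors were read from lists of known partners. Of 28 genes tested for scaffolds and partners of excitatory receptors, 3 were higher in EAE than control on ND (dlg4b, which encodes PSD-95, syngap1b and grip1; list median 0.29) and 6 were higher on the HFHC diet in controls (median 0.27), with 0 lower in either; with the diet in EAE larvae 0 were called. Of 9 inhibitory scaffold genes, gephyrin (gphnb) was higher on ND, with 10.9, 10.3 and 12.1 CPM in control and 15.4, 16.3 and 15.1 CPM in EAE pools (0.48 ± 0.11, adjusted p = 0.0496, edgeR). In that list 2 genes were higher with the diet in controls, arhgef9a and shisa7b, and 0 were called with the diet in EAE larvae.

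Of 12 genes of GABA and glycine synthesis, loading and uptake 3 were higher in EAE than control on ND, with a list median of 0.40. The vesicular GABA and glycine transporter slc32a1 measured 38.01, 37.9 and 40.1 CPM in control ND and 51.5, 51.3 and 52.8 CPM in EAE ND pools (0.42 ± 0.08, adjusted p = 0.0231, edgeR), and the GABA transporter slc6a1b 74.4, 76.0 and 84.1 CPM against 127, 107 and 115 CPM (0.57 ± 0.12, adjusted p = 0.0364). The third was slc6a11b (0.45 ± 0.09, adjusted p = 0.0332). The share of all genes called higher was 0.850%. With the diet 3 were higher in controls (slc6a1b, slc6a11b and slc6a9; median 0.26), and in EAE larvae slc6a11a was higher (0.47) and slc32a1 lower (-0.28; median -0.15). Of 13 genes of glutamate release and uptake 2 were higher in EAE than control on ND, the glial glutamate transporters slc1a2b (0.67 ± 0.11, adjusted p = 0.0117) and slc1a3b (0.52 ± 0.10, adjusted p = 0.0312). With the diet 3 were higher in controls (slc17a6a, slc1a2a and slc1a2b; median 0.21), and in EAE larvae glsb was higher (0.24) and slc17a7a (-0.41) and slc1a3b (-0.49) were lower (median -0.19).

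The transporter slc1a2b was the gene of these partner lists with an interaction past the test (-0.77 ± 0.15, adjusted p = 0.0413, edgeR). It measured 130, 147 and 155 CPM in control ND, 237, 214 and 238 CPM in EAE ND, 238, 162 and 211 CPM in control HFHC, and 182, 200 and 191 CPM in EAE HFHC pools. Control ND was its lowest group, and control HFHC replicate 2 lay below the other control HFHC pools. It is also in the list of glia markers.

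Of 4 acetylcholine genes and 5 neuromuscular junction partners 0 were called on ND. In controls chata, the enzyme that makes acetylcholine, was higher on the HFHC diet (0.30, adjusted p = 0.0216, edgeR). Of 19 metabotropic receptor genes tested, which signal through G proteins, 0 were called on ND and 3 were higher with the diet in controls: grm1a (0.51), grm5a (0.65) and gabbr2 (0.70). Of 3 chloride carriers, slc12a5b, the KCC2 carrier that keeps chloride low in neurons, was higher with the diet in controls (0.48 ± 0.13, adjusted p = 0.0187). Between EAE and control on the HFHC diet 0 genes of any partner list were called.

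The paralogs of the zebrafish genome duplication allow a closer look at calls within a subunit type. Of the 75 genes 42 form 21 a and b pairs. In no pairwise comparison were both genes of a pair called except grin1a and grin1b with the diet in controls. Few genes were called and the copies were not tested against each other, so a call of 1 copy alone does not show that they differed. Reads that fit both copies may have been counted for either or for neither, since how the larval counts treated them is not given in the sources used here. In addition 15 of the genes overlap the annotated span of another gene, among them gabra6a, gabrd, gabrz, gria2b and grin3ba of those called. Without the strand setting, reads in a shared stretch cannot be assigned. For gabra6a that stretch is only a few bases at an end of the span. For gabrz the overlapping gene adgra1a had differences of 0.51 (adjusted p = 0.104) on ND and 0.28 (adjusted p = 0.237) with the diet in controls, and for gria2b the overlapping pdgfc had 0.06 (adjusted p = 0.623) with the diet in controls.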

How the data were processed

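RNA-Seq was performed on poly(A) RNA of pools of whole larvae, read from one end. The authors aligned the reads to GRCz10 with STAR (versions 2.3 and 2.4 and HTSeq 0.6.0 appear in the submitters' processing notes). The larval counting program, gene models, strand setting and treatment of reads that map to several genes are not given in the sources used here. The authors deposited raw counts per gene symbol and TPM per gene, and the deposited raw counts of 10 adult control livers were read for the closing section. The deposited liver tables also hold the authors' fold changes and p-values, which were not used. A further 70 columns of per-sample values were not used. Gene positions were taken from the liver tables.

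Counts of 12 larval pools were fitted together with a mean per group (R 4.3.3, edgeR 4.0.16, limma 3.58.1), after TMM scaling and edgeR's filterByExpr filter, with the quasi-likelihood test and Benjamini-Hochberg adjustment over 19657 genes. CPM of the larval pools were computed after TMM scaling, and deviations by pool use log2 CPM with a prior count of 2. CPM of the livers are counts relative to the library total, without that scaling. The scripts were tested on simulated data. Alternatives were DESeq2 1.42.0, RLE scaling, library totals, no filter, at least 10 counts in every pool, only the groups compared, a replicate block and each replicate left out. Total counts were 18582927 to 39115243 per pool, and replicates differed by more than counting noise, so depth alone did not set the precision. Limits at a count of 0 cover counting error only.

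The members and the gene lists were chosen with earlier results of these data known. Named genes are, in each comparison, the members past the threshold (the 8 with the smallest p where a direction holds more), the 2 highest by TPM in each class and all muscle-type nicotinic genes; others are named where a count of 5 or fewer is completed, for paralogs or overlapping genes, or where a call depends on 1 pool, and were chosen after their values were seen. The values of 1 member are not reported here; it is included in the counts, medians and sums.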

Additional observations from a re-analysis of the deposited data

Results flagged for a closer look

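Single livers of adult AB siblings, kept in 0% EtOH as embryos and fed an adult ND or HFHC diet for 8 weeks from day 65, lie outside the larval comparisons, and chrne and grik1a stood out there because every one of the 10 control livers (5 on each diet) had more than 3 counts of them. The lowest count in a control liver was 39 for chrne and 5 for grik1a, in libraries of 8131371 to 12146437 counts. Liver CPM were not scaled for library composition. The mean level of chrne was 13.1 CPM ± 7.99 (SD, n = 5) on ND and 8.20 CPM ± 1.97 on the HFHC diet. For grik1a it was 3.62 CPM ± 0.378 on ND and 8.01 CPM ± 9.18 on the HFHC diet, where the livers ran from 0.444 to 23.5 CPM; without the highest liver, replicate 6, the mean was 4.13 CPM. Of 74 receptor genes with a row for the livers, 24 had no count in any of these livers, and 6 had a mean of at least 1 CPM, as did 12907 of all 25680 genes. What these liver counts come from was not tested.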

How the results depend on the processing

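Medians over the 72 receptor genes kept their sign under every alternative in the comparison of EAE and control on ND, in both diet comparisons and in the interaction. The counts of calls moved more. Between EAE and control on ND, 4 genes were called, against 7 with DESeq2, 2 with RLE scaling, 1 with library totals and 1 with only the 2 groups compared, and 0 to 2 with 1 pool left out. With the diet in controls, 11 were called, and 2 to 20 with 1 pool left out. With the diet in EAE larvae the 1 call became 1 to 2. For the interaction, 0 calls became 1 with DESeq2, 1 with no filter and 0 to 8 with 1 pool left out, and the median of -0.30 ranged from -0.41 to -0.18. Between EAE and control on the HFHC diet 0 were called under every alternative. Over named genes and alternatives no fold change that had been called changed sign, and 63 calls were lost and 27 gained. Where counts moved without fewer samples or genes, the cause was not tested.

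Over all genes, 257 were called between EAE and control on ND (7 to 277 with 1 pool left out, 145 to 510 under the other alternatives), 46 on the HFHC diet (8 to 60, 22 to 130), 3368 with the diet in controls (1868 to 3415, 2737 to 3462), 2421 with the diet in EAE larvae (1525 to 1850, 2216 to 2433) and 50 for the interaction (15 to 386, 37 to 254).

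The replicate numbers did not pair the pools: over 18 same-numbered pairs the correlation of deviations from the group means ran from -0.110 to 0.0757, with 0 above 0.1. With the replicate number as a block, 6 genes were called between EAE and control on ND, 11 with the diet in controls, 1 with the diet in EAE larvae and 0 in the other 2 comparisons. Depth limits the lowest genes: chrna4a, chrnb1l and gabra3 had at most 11 counts in a pool, too few to show a difference.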
